A study of Homo sapiens with 6 samples.

Results

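Pyrimidine nucleotides are built from uridine, cytidine and thymidine that a cell takes up, or from small precursors by the de novo route, in which dihydroorotate dehydrogenase (DHODH) acts. The genes described here serve the uptake route, called salvage. They were taken by symbol from the deposited tables: the uridine-cytidine kinase genes UCK1, UCK2 and UCKL1, the thymidine kinase genes TK1 and TK2, the deoxycytidine kinase gene DCK, the uridine phosphorylase gene UPP1, the cytidine deaminase gene CDA, and SLC29A1 and SLC29A2, which encode the equilibrative nucleoside transporters ENT1 and ENT2. Of these 10 genes 9 had a row, with 19 rows (1 per RefSeq transcript) of the 22442 deposited, which cover 12438 gene symbols. DCK was not analysed here.

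Nascent transcription was read by global run-on sequencing (GRO-seq): polymerases already on DNA are allowed to continue in isolated nuclei, and the RNA they make there is isolated and sequenced. The cells were A375, an established human melanoma line. For 48 h they received leflunomide at 25 µM, A771726 at 25 µM or DMSO, the solvent, with 2 libraries for each of the 3 groups (6 libraries in all). Leflunomide is an isoxazole prodrug, A771726 (teriflunomide) is its ring-opened active metabolite, and both are used as DHODH inhibitors. Every group was the same line in the same medium, and no group received uridine or another nucleoside as far as the labels say.

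In salvage, equilibrative transporters let nucleosides cross the plasma membrane. Uridine-cytidine kinases then phosphorylate uridine and cytidine, a step that lets cells use outside uridine when the de novo route is blocked. TK1 is the cytosolic thymidine kinase, abundant in S phase, and TK2 its mitochondrial counterpart. Uridine phosphorylase splits uridine to uracil and ribose phosphate, and cytidine deaminase turns cytidine into uridine, so both draw on the nucleosides that the kinases use.

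The tables give 3 measures. Promoter density and gene body density are read densities over the start and the rest of a gene, with no unit named in the labels or headers, and the quotient of the first over the second is the traveling ratio. The deposited values are the authors' means of the 2 libraries of a group, so they carry no error. The values of single libraries were solved from the 3 means of a row wherever the promoter mean was above 0. "Library 1" is the library of a group in which 1 promoter read has the smaller value, and its match to the labels' replicate letters is not known.

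The sequences around the annotated starts of UCK1, TK1 and TK2, the genes that the gene body results below turn on, are shown from RefSeq (GRCh38.p14), from 250 bases before to 50 bases after the start, in the direction of transcription. The deposited tables use hg18 and give no coordinates, so these stretches were not matched to the authors' promoter windows. They lie at chr9:131531214-131531513 for UCK1, chr17:78187003-78187302 for TK1 and chr16:66550073-66550372 for TK2, all on the minus strand. Capitals mark matches on either strand to CCAAT, to GGGCGG, to TTTNNCGC or to TATAAA.
UCK1: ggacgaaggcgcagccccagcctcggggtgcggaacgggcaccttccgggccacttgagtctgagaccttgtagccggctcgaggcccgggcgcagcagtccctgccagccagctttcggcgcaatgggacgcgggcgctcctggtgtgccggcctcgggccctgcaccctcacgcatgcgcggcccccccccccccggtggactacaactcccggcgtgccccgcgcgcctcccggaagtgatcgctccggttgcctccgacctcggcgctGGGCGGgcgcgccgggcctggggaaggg
TK1: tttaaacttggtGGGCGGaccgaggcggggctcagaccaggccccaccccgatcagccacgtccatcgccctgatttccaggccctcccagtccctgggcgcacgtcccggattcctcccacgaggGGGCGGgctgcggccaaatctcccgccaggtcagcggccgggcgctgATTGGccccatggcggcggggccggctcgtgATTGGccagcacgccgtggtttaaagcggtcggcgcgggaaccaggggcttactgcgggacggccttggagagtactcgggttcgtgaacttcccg
TK2: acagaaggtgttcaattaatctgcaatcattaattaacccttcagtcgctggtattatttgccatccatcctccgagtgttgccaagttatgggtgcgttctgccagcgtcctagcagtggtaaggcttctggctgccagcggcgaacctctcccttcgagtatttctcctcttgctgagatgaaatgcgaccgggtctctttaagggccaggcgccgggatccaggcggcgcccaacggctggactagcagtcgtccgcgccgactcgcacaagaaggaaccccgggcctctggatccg
The TK1 stretch holds 2 matches to CCAAT, both on the opposite strand, and 2 to GGGCGG. UCK1 holds 1 GGGCGG, and none of the 4 motifs is in the TK2 window. RefSeq lists a second TK1 start 152 bases away, which has 3 GGGCGG and 1 TATAAA. Of 35116 promoter stretches of this length, 34.6% hold CCAAT, 45.0% GGGCGG, 6.89% TTTNNCGC and 11.5% TATAAA. None of these motifs contains another. A match is a string of letters and not a measured site.

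Before the treatments were compared, the genes were ordered by the authors' mean gene body density in DMSO. UCKL1 (NM_017859) was at 0.0637, the 84.0th percentile of all genes, and UCK1 (NM_001135954) at 0.0555, the 81.5th. SLC29A2 (NM_001532) at 0.0356, UPP1 (NM_181597) at 0.0346 and TK1 (NM_003258) at 0.0340 followed closely, between the 68.3rd and 69.7th percentiles. UCK2 (NM_012474) at 0.0246 and TK2 (NM_001172644) at 0.0236 lay just above the median gene, which was at 0.0196. SLC29A1 (NM_001078177) was at 0.0131 and CDA (NM_001785) at 0.0098, the 30.6th percentile. Where both libraries were solved, neighbours in this order overlapped: the 2 SLC29A2 libraries (0.0219 and 0.0493) spanned those of UPP1 and TK1, and the UCK1 value of 0.0619 in library 1 lay above the UCKL1 value of 0.0612. The uridine-cytidine kinase genes UCK1 and UCKL1 held the top 2 places with leflunomide as well, at 0.0624 and 0.0620. With A771726 UCKL1 stayed first at 0.0423, while UCK1 at 0.0228 was behind UPP1 at 0.0263.

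**Figure D1:**
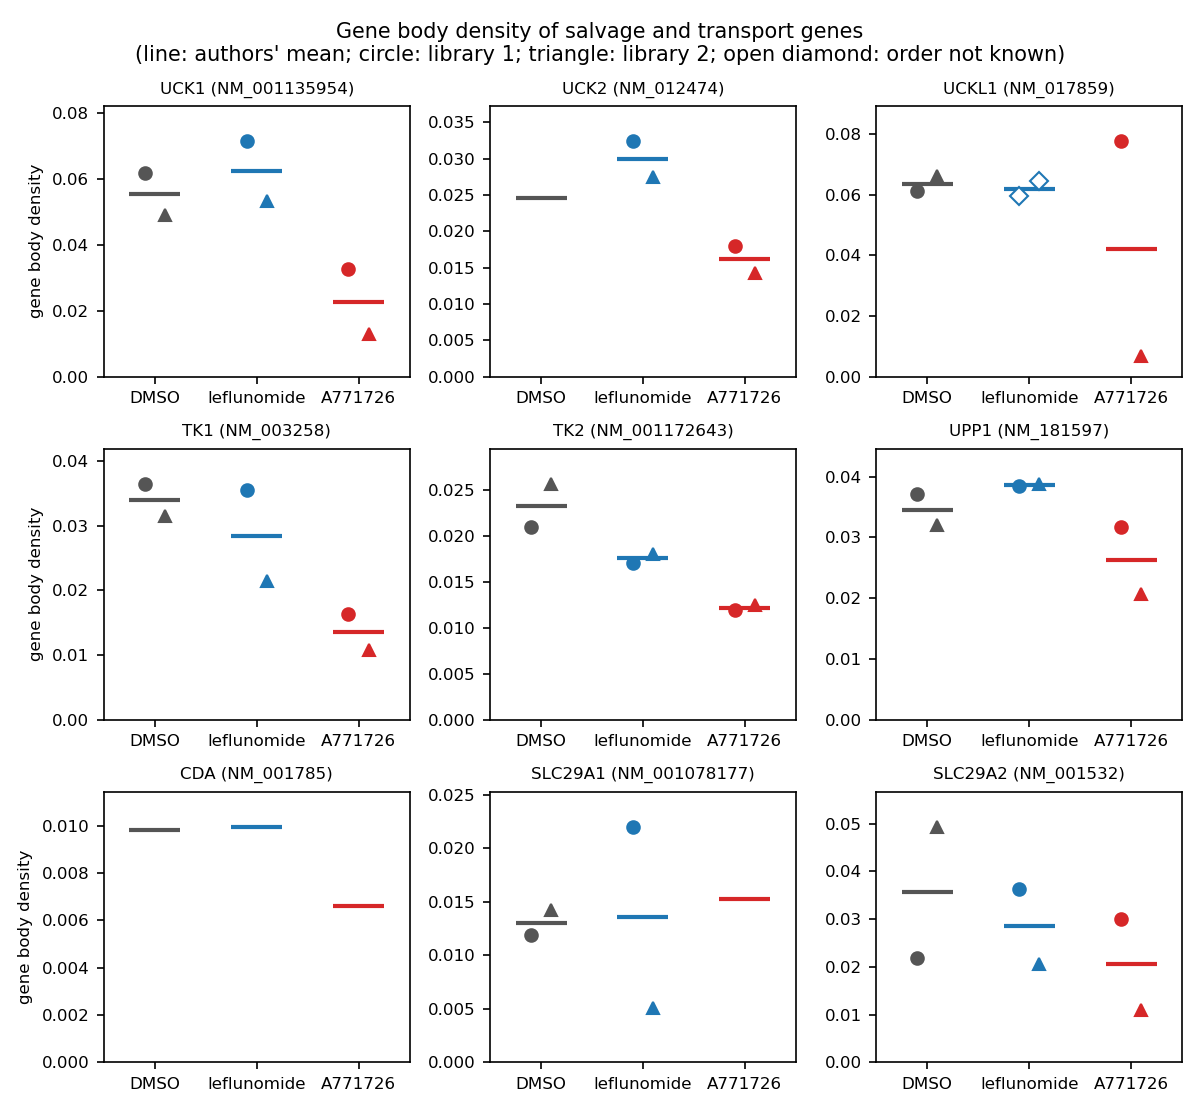
Gene body density (vertical axis, deposited density units, from 0) of the 9 genes in DMSO, leflunomide and A771726, with the authors' group mean as a line and the solved libraries as points. Both A771726 libraries of UCK1, TK1, TK2 and UPP1 (row NM_181597) lie under both DMSO libraries, as they do at 55.3% of 3772 genes. The other UPP1 row (NM_003364), which is not drawn, overlaps. The A771726 libraries of UCKL1 lie above and below its DMSO pair, and SLC29A2 has one between its DMSO libraries and one under both.

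UCK1, which phosphorylates uridine and cytidine, had overlapping gene body densities in DMSO and leflunomide and lower ones with A771726. Its 2 libraries were at 0.0619 and 0.0490 for DMSO, 0.0715 and 0.0532 for leflunomide and 0.0326 and 0.0129 for A771726. Both A771726 libraries were below all 4 others, and they differed from each other more than the libraries of either other group did. Among 3772 genes with solved libraries, 55.3% were lower without overlap with A771726 against DMSO and 55% against leflunomide. In bulk samples such as these, fewer cells that transcribe a gene and less RNA per cell cannot be told apart. In limma (linear models over the libraries, with Benjamini-Hochberg adjustment over 3772 genes) the log2 change against DMSO was −1.33 with A771726 (95% interval −2.39 to −0.26, adjusted p = 0.183), which does not pass the adjusted threshold of 0.05. Against leflunomide the A771726 estimate was −1.48 (−2.55 to −0.42, adjusted p = 0.323), the largest difference between the compounds among the 5 genes fitted. With leflunomide against DMSO UCK1 was at 0.16 (−0.91 to 1.22, adjusted p = 1.00). The A771726 estimate against DMSO rested unevenly on its libraries: it was −0.72 with library 2 left out and −1.93 with library 1 left out. The other UCK1 row (NM_031432) holds the same values, and POMT1, a protein O-mannosyltransferase gene, overlaps UCK1 on the other strand in GENCODE. Whether the counting used strand is not given in the sources used here.

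UCK2, whose enzyme acts on the same nucleosides, was at group means of 0.0246, 0.0300 and 0.0162 in DMSO, leflunomide and A771726. The libraries were 0.0324 and 0.0275 with leflunomide and 0.0180 and 0.0143 with A771726, without overlap. Of the 3772 genes fitted, 55% were lower with A771726 against leflunomide in this way. UCK2 was not in the fit, which took genes with all 6 libraries solved, since the promoter mean of 0 in DMSO left that pair unsolved, and its difference between the compounds was not tested. On the scale of the group means its log2 changes were 0.27 with leflunomide and −0.55 with A771726 against DMSO, and −0.81 between the compounds. UCK2 overlaps TMCO1, an endoplasmic reticulum calcium channel gene on the other strand.

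UCKL1, the uridine-cytidine kinase-like gene, had the widest difference between libraries of a group among the genes solved. NM_017859 was at 0.0612 and 0.0662 in DMSO and at 0.0595 and 0.0645 with leflunomide (the order of these last libraries is not known). With A771726 it was at 0.0777 in library 1 and at 0.0068 in library 2. The deposited A771726 mean of 0.0423 is therefore far from both of its libraries. UCKL1 was not in the fit. A second row, NM_001193379, had means of 0.0501, 0.0636 and 0.0455 in DMSO, leflunomide and A771726. In group means the log2 change of UCKL1 against DMSO was −0.04 with leflunomide and −0.57 with A771726.

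TK1, the S phase thymidine kinase gene, was lower with A771726 in both libraries. It was at 0.0365 and 0.0315 for DMSO, 0.0355 and 0.0214 for leflunomide and 0.0164 and 0.0107 for A771726. The leflunomide libraries straddled the lower DMSO one, and the A771726 libraries lay below all others. Over the 3772 genes fitted, 55.3% were lower without overlap with A771726 against DMSO and 55% against leflunomide. The limma estimate for A771726 against DMSO was −1.23 (95% interval −2.09 to −0.36, adjusted p = 0.158), and against leflunomide −0.95 (−1.81 to −0.09, adjusted p = 0.323). For leflunomide against DMSO it was −0.28 (−1.14 to 0.59, adjusted p = 1.00). TK1 ranked at the 68.3rd percentile of all genes in DMSO, the 63.9th with leflunomide and the 51.7th with A771726. AFMID, the kynurenine formamidase gene, starts within 1 kb of TK1 on the other strand.

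TK2, the mitochondrial thymidine kinase gene, had the closest pair of A771726 libraries among the genes with solved libraries, though not the closest pair with leflunomide. Row NM_001172643 was at 0.0210 and 0.0257 for DMSO, 0.0171 and 0.0181 for leflunomide and 0.0119 and 0.0125 for A771726. The 3 groups did not overlap and stood in the order DMSO, leflunomide, A771726. Of 3772 genes fitted, 21% were lower without overlap with leflunomide against DMSO. With A771726 55.3% were so against DMSO and 55% against leflunomide. The share of genes with all 3 groups in this order was not counted. Against DMSO limma put leflunomide at −0.36 (95% interval −1.08 to 0.35, adjusted p = 1.00) and, for A771726, −0.83 (−1.54 to −0.11, adjusted p = 0.194). Between the compounds the estimate was −0.46 (−1.18 to 0.26, adjusted p = 0.403). The other 3 TK2 rows had group means of 0.0236, 0.0176 and 0.0122. CKLF, a chemokine-like factor gene, starts within 1 kb of TK2 on the other strand. AC010542.3, annotated as protein coding, overlaps TK2 on the same strand, and non-coding genes overlap it on the other strand.

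UPP1, the uridine phosphorylase gene, was slightly higher with leflunomide and lower with A771726. Row NM_181597 was at 0.0371 and 0.0320 for DMSO, 0.0385 and 0.0388 for leflunomide and 0.0318 and 0.0207 for A771726. The leflunomide libraries lay above both DMSO libraries by a small margin, as did those of 14.1% of 3772 genes by any margin. The upper A771726 library lay just under the lower DMSO one, a lack of overlap that 55.3% of these genes shared. Estimates by limma were 0.16 for leflunomide against DMSO (95% interval −0.63 to 0.94, adjusted p = 1.00), −0.40 with A771726 (−1.18 to 0.39, adjusted p = 0.461) and −0.55 for A771726 against leflunomide (−1.34 to 0.24, adjusted p = 0.380). The second row, NM_003364, was at 0.0354 and 0.0308, 0.0355 and 0.0375, and 0.0324 and 0.0211 in the same order, so its A771726 libraries overlapped those of DMSO. CDA, the deaminase gene, was low throughout, with group means of 0.0098, 0.00995 and 0.0066, and none of its libraries could be solved.

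Of the transporter genes, SLC29A1 (ENT1) was the only one of the 9 genes with a higher group mean under A771726 than in DMSO. NM_001078177 had means of 0.0131, 0.0136 and 0.0153 in DMSO, leflunomide and A771726, so A771726 differed from DMSO by 0.20 in log2, and by 0.72 once the median gene was subtracted (91.7th percentile of all changes). On the latter scale UPP1 (0.15) and CDA (0.07) were above 0 as well. The libraries were 0.0119 and 0.0142 in DMSO and 0.0220 and 0.0051 with leflunomide, and the A771726 pair was not solved, so this value has no replicate check. The rows NM_001078174 and NM_004955 had means of 0.0107, 0.0123 and 0.0117. SLC29A2 (ENT2) had group means of 0.0356, 0.0286 and 0.0206. Its libraries were 0.0219 and 0.0493 for DMSO, 0.0364 and 0.0207 for leflunomide and 0.0301 and 0.0110 for A771726, which overlap in every comparison. The limma estimates for SLC29A2 were −0.25 (95% interval −1.57 to 1.08, adjusted p = 1.00) with leflunomide, −0.77 (−2.10 to 0.55, adjusted p = 0.397) with A771726, and −0.53 (−1.85 to 0.79, adjusted p = 0.568) for A771726 against leflunomide.

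In the group means the median change of the salvage and transport genes was close to that of all genes. With leflunomide against DMSO none of the 9 genes reached a 2-fold change, against 1.85% of 8706 genes that far up and 4.5% that far down. Their median log2 change was 0.02, with 5 genes above 0 and 4 below, beside −0.06 for all genes. With A771726 against DMSO 2 of 9 were at least 2-fold lower, UCK1 and TK1 (both −1.21), and none was higher, against 18.7% lower and 0.85% higher among all genes. The median was −0.57 for the 9 genes and −0.52 for all genes. Of the 9 genes 8 lay below 0, as did the median gene, and the share of all genes below 0 was not counted. Relative to the median gene UCK1 and TK1 were at −0.69 each (11.7th and 11.8th percentile), so neither stayed past 2-fold, and 3 of the 9 genes lay above the median gene. Relative to that median, 314 genes were higher and 504 lower by 2-fold, in place of 74 and 1628 as deposited.

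The compounds were given at the same dose and for the same time, and 3 pairs of groups were compared. With A771726 against leflunomide UCK1 alone of the 9 genes was at least 2-fold lower (−1.37, 4.65th percentile) and none was higher, against 12.6% lower and 1.05% higher among all genes. Relative to the median gene UCK1 was at −0.90, under 2-fold, and over all genes the split was 297 higher and 329 lower in place of 91 and 1093. The median was −0.52 for the 9 genes and −0.48 for all genes. Both compounds' values were set against the same DMSO libraries. No difference between the compounds passed the adjusted threshold at any of the 5 genes fitted, and their intervals reached from −2.55 (UCK1) to 0.79 (SLC29A2), so differences of over 2-fold were within the intervals of UCK1, TK1, TK2, UPP1 and SLC29A2.

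**Figure D2:**
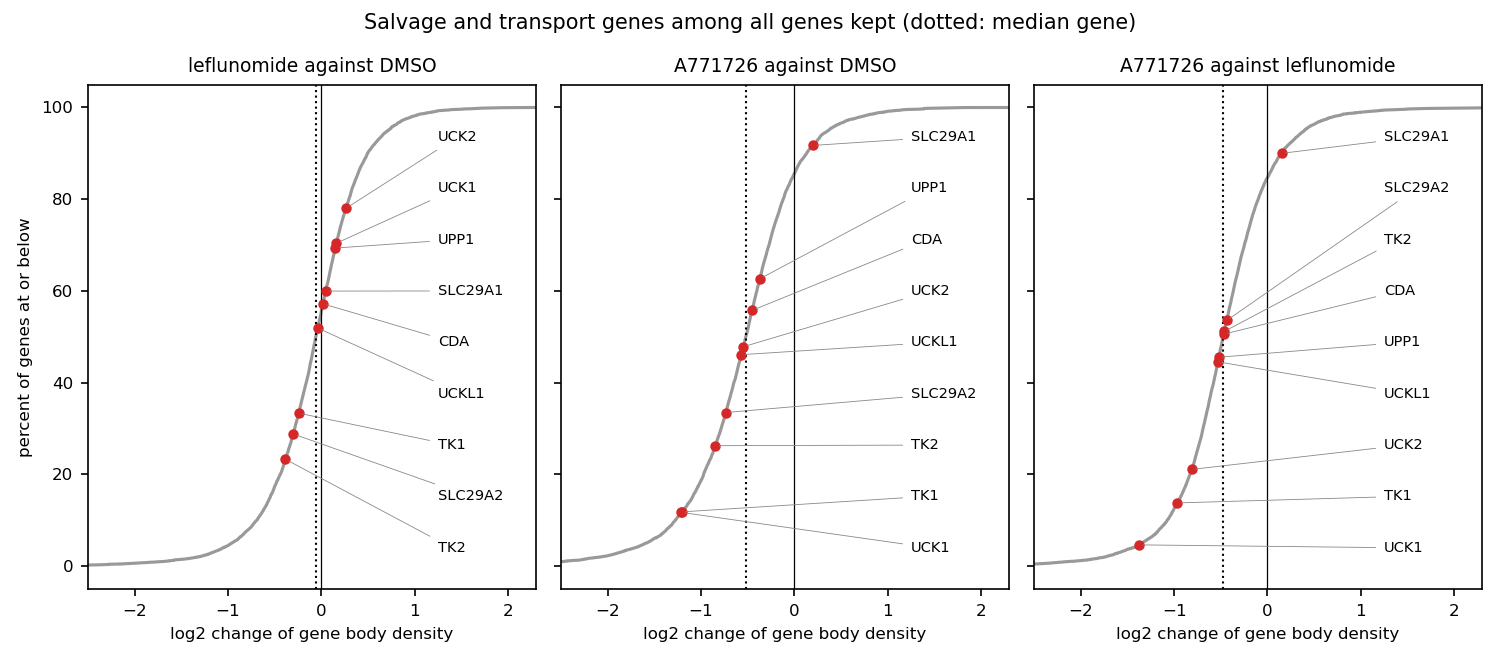
Log2 change of gene body density from the group means (horizontal axis) against the percent of the 8706 genes at or below it (vertical axis), for the 3 comparisons, with the 9 genes as points and the median gene as a dotted line. With A771726 the median gene is at −0.52 against DMSO, UCK1 and TK1 lie at −1.21, and SLC29A1 at 0.20.

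In the libraries limma called no gene at an adjusted p under 0.05 in any gene body comparison: 0 of 3772 higher or lower (0%), and 0 of the 5 genes fitted here (UCK1, TK1, TK2, UPP1 and SLC29A2). The same held for limma without its trend and robust options. Without library 1 of A771726 there were 79 calls against DMSO, all lower and none of them among these 5, where UCK1 had an adjusted p of 0.0593 and TK1 one of 0.0838. Without library 1 of DMSO there was 1 call with each compound, again none of the 5. At an unadjusted p under 0.05 there were 172 genes (4.56%) with leflunomide, none of them among these 5. With A771726 there were 818 (21.7%), of which 806 (21.4%) were lower, and 3 of the 5 were among them, UCK1, TK1 and TK2, all lower. Between the compounds there were 583 (15.5%), of which 565 (15%) were lower, with UCK1 and TK1 among them. With libraries centred on their medians these counts were 193 (5.12%) with leflunomide and 313 (8.3%) with A771726, none of the 5 among them, and 204 (5.41%) between the compounds, with UCK1 alone of the 5. The libraries did not overlap, in the lower direction, at 4 of 5 genes with A771726 against DMSO (UCK1, TK1, TK2 and, in row NM_181597 only, UPP1), where 55.3% of all genes did so, and at the same 4 against leflunomide, where 55% did. None of the 5 was higher without overlap in either of those (1.99% and 2.23% of all genes). With leflunomide against DMSO TK2 was lower without overlap (21% of all genes) and UPP1 higher (14.1%). With 2 libraries a group, and nothing in the labels to say whether they came from separate cultures beyond treatment in duplicate, these p-values measure the spread between these libraries alone.

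The density scale also differed between libraries. Library medians over all genes fitted were 0.0397 and 0.0339 (DMSO), 0.0369 and 0.0341 (leflunomide), and 0.0272 and 0.0223 (A771726). The density worth 1 promoter read was 0.0438 and 0.0520 for DMSO, 0.0347 and 0.0376 for leflunomide and 0.0241 and 0.0313 for A771726, so it was lowest in the group with the lowest densities. Divided by that value, TK2 was at 0.480 and 0.494 reads per promoter window length for DMSO, 0.493 and 0.481 for leflunomide and 0.495 and 0.399 for A771726, and its ordered groups became level. UCK1 was at 1.41 and 0.942, 2.06 and 1.41, and 1.36 and 0.412 in the same order, with the lowest value still in an A771726 library and the other one between the DMSO values. TK1 was at 0.834 and 0.606, 1.02 and 0.569, and 0.682 and 0.342, which also overlapped between A771726 and DMSO. These values are in reads, with no adjustment for the depth of a library. The median gene of the fit was at 0.907 and 0.652, 1.06 and 0.907, and 1.13 and 0.712 on that scale. Levels on it are thus not directly comparable between libraries either. With libraries centred on their medians the limma estimates for A771726 against DMSO were −0.79 for UCK1 (adjusted p = 0.643), −0.69 for TK1 (adjusted p = 0.617), −0.29 for TK2 (adjusted p = 0.830), −0.24 for SLC29A2 (adjusted p = 0.931) and 0.14 for UPP1 (adjusted p = 0.911), the last with the opposite sign. The part of the scaling in these differences was not tested.

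**Figure D3:**
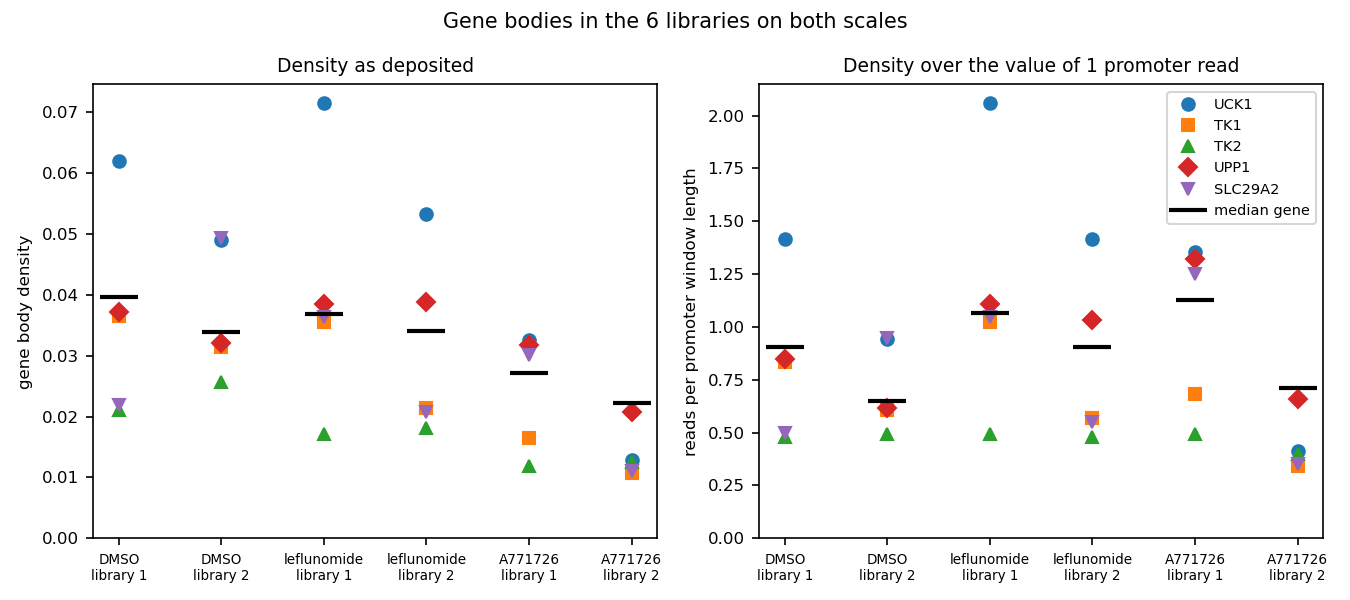
Gene body values of UCK1, TK1, TK2, UPP1 and SLC29A2 in each of the 6 libraries, as deposited density (left) and divided by the density worth 1 promoter read (right), with the median of 3772 genes as a bar. TK2 descends from 0.0257 to 0.0119 on the left and stays between 0.399 and 0.495 on the right.

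Promoter signals rested on few reads. TK1 had 3 and 3 promoter reads for DMSO, 5 and 4 for leflunomide and 4 and 3 for A771726, the most even of the 9 genes. UCK1 had 3 and 6, 5 and 2, and 8 and 0, so the A771726 mean of 0.0962 came from library 1 alone. TK2 (NM_001172643) had 1 and 0 for DMSO, 1 and 0 for leflunomide and 3 and 1 for A771726. As densities, the TK1 promoter was at 0.131 and 0.156 for DMSO, 0.173 and 0.150 for leflunomide and 0.0962 and 0.0939 for A771726. On that scale leflunomide overlapped DMSO and both A771726 libraries were below all others, whereas in reads, whose value differs between libraries, A771726 shared a value with each other group. UPP1 (NM_181597) had 7 and 2.78 for DMSO, 2 and 2 for leflunomide and 2 and 6 for A771726, where a value that is not whole means that the density was no whole multiple of 1 read. UCK2 had no promoter read in either DMSO library, 3 and 3 with leflunomide, and 2.78 and 1 with A771726, too few against a count of 0 for a fold to be given. SLC29A2 had 1 and 0, 3 and 1, and 2 and 0, SLC29A1 had 1 and 0, 1 and 2, and 0 and 0, and CDA had none in any library.

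Of the 8 genes that passed the promoter filter (all but CDA), 6 had promoter reads in both DMSO and leflunomide in the row used. In the group means with a pseudocount SLC29A2 was at least 2-fold higher with leflunomide (log2 change 1.17), and UCKL1 (−1.01) and UPP1 (−1.44) at least 2-fold lower, against 30.6% higher and 16% lower of 8838 genes. Relative to the median gene SLC29A2 was at 0.95, under 2-fold, and UCKL1 and UPP1 at −1.23 and −1.66. With A771726 against DMSO UCK1 alone, of the genes with reads in both groups, passed 2-fold (−1.07, lower), against 20.8% higher and 26% lower. Between the compounds SLC29A2 alone did so (−1.09, lower; −0.79 relative to the median gene), against 13.5% higher and 30.6% lower. No fold is given for UCK2 and the TK2 row used (NM_001172644) against DMSO, where both were at 0, nor for SLC29A1 with A771726, where it was at 0, since such values depend on the pseudocount. The shares over all genes do include genes at 0 in a group. Counted that way, 3 of the 8 genes were higher and 2 lower with leflunomide. With A771726 2 were higher and 2 lower, and between the compounds 0 and 2. Relative to the median gene the split over all genes was 1943 higher and 1742 lower with leflunomide, in place of 2702 and 1417, and 1709 and 1854 between the compounds, in place of 1193 and 2706. In limma no promoter was called (0 of 3772 genes in each comparison), and the unadjusted p was under 0.05 for 78 genes (2.07%) with leflunomide, 127 (3.37%) with A771726 and 85 (2.25%) between the compounds, none of them among the 5 genes fitted. Leaving out library 1 of DMSO gave 23 calls with leflunomide and 16 with A771726, and leaving out library 1 of A771726 gave 4 against DMSO and 7 against leflunomide, none at the 5 genes. The smallest adjusted p among the 5 was 0.993, and for UCK1 with A771726 the promoter estimate was −1.87 with an interval from −4.38 to 0.63.

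**Figure D4:**
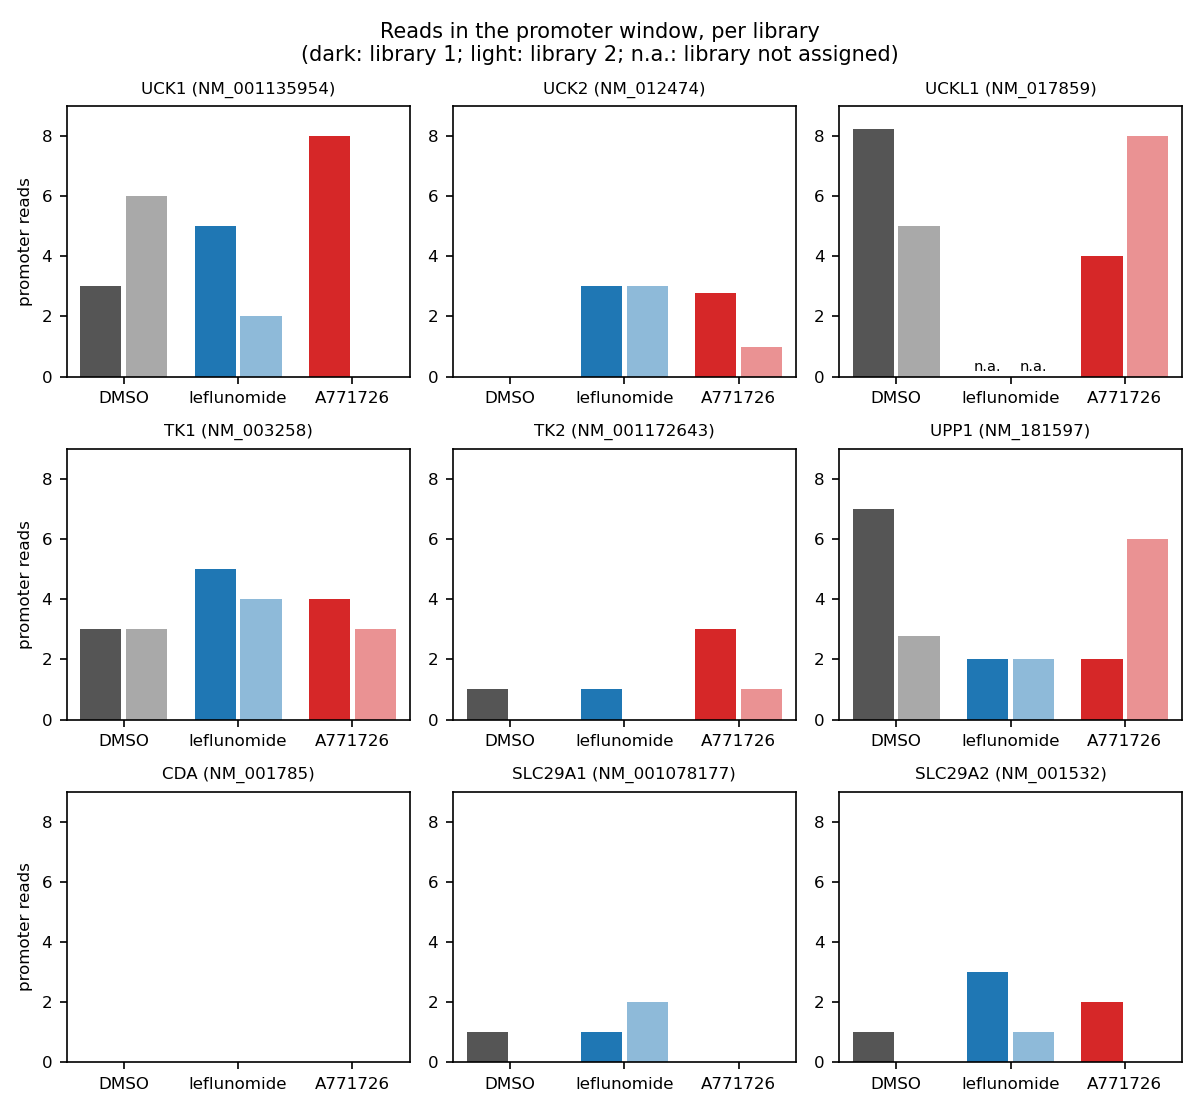
Promoter reads per library (vertical axis, promoter density divided by the value of 1 read, from 0) for the 9 genes, with library 1 in the dark and library 2 in the light shade. No bar exceeds 8.22 reads, TK1 has 3 to 5 in every library, and CDA has none.

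The traveling ratio compares polymerase near the start with polymerase further along. TK1 had a mean ratio of 4.27 for DMSO, 5.96 with leflunomide and 7.32 with A771726, and its libraries were at 3.60 and 4.95, 4.88 and 7.03, and 5.87 and 8.78. The limma estimate for A771726 against DMSO was 0.77 (interval −1.05 to 2.58, adjusted p = 0.842), beside a median of 0.52 for all 1445 genes, and with libraries centred on their medians it was 0.30 (adjusted p = 0.966). UCK1 had mean ratios of 4.24, 1.92 and 2.95, the last from library ratios of 5.90 and 0. UPP1 (NM_181597) had mean ratios of 6.39, 1.87 and 5.29, with a limma estimate of −1.71 for leflunomide against DMSO (interval −3.88 to 0.46, adjusted p = 0.999). Its second row, NM_003364, had 5.40, 3.95 and 0.372, so the rows of UPP1 differed in ratio far more than in gene body density. UCKL1 (NM_017859) had 4.90, 2.29 and 19.0, and the A771726 mean averaged library ratios of 1.24 and 36.8.

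The row used for TK2, NM_001172644, had a DMSO ratio of 0, so TK2 is not in the counts of ratios. Its row NM_001172643 had mean ratios of 1.04, 1.01 and 4.29, the last from 4 reads. Of the 5 genes whose row used had a ratio above 0 in every group, SLC29A2 was at least 2-fold higher with leflunomide and UCK1, UCKL1 and UPP1 at least 2-fold lower, against 27.9% higher and 15.3% lower of 5173 genes. With A771726 UCKL1 alone was higher and none lower, against 34.6% and 17.1%. Between the compounds UCKL1 and UPP1 were higher and SLC29A2 was lower, against 26.9% and 20.9%. The median log2 change of the 5 genes was −1.10, −0.27 and 0.62 in these comparisons, beside 0.27, 0.42 and 0.15 for all genes. Relative to those medians the splits over all genes were 1096 higher and 1077 lower with leflunomide, in place of 1445 and 792, and 1243 and 1246 with A771726, in place of 1790 and 883. In limma no ratio was called among 1445 genes, and at an unadjusted p under 0.05 there were 68 (4.71%), 113 (7.82%) and 72 (4.98%), with neither TK1 nor UPP1, the 2 genes fitted, among them. Without library 1 of A771726 16 ratios were called against DMSO and 7 against leflunomide, and without library 1 of DMSO 3 with leflunomide and 5 with A771726, neither TK1 nor UPP1 among them. No deposited row has a DMSO ratio above 7.5, so the rows were selected on DMSO values, and ratios above that limit could appear with the compounds alone.

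Other genes of nucleotide supply gave a backdrop to the salvage genes. Of 14 further salvage, nucleotidase and transport genes with a row, 6 passed the filter and none differed by 2-fold. Their median log2 changes were −0.13 with leflunomide and −0.35 with A771726. The deaminase gene DCTD was at −0.27 and 0.10, the cytosolic nucleotidase genes NT5C at 0.11 and −0.25 and NT5C2 at −0.36 and −0.44, and the thymidine phosphorylase gene TYMP at −0.16 and −0.66. The concentrative transporter genes SLC28A1, SLC28A2 and SLC28A3 were below the filter, with DMSO means of 0.0022, 0.0073 and 0.0015. Of the de novo genes, 4 passed the filter and 1, UMPS (uridine monophosphate synthetase), was at least 2-fold lower with A771726 (−1.38; −0.70 with leflunomide), beside 18.7% of all genes. Relative to the median gene it was at −0.86, under 2-fold. CAD, which catalyses the first steps, was at 0.18 with leflunomide and −0.45 with A771726, the CTP synthetase gene CTPS at 0.37 and −0.17, and DHODH at 0.57 and 0.37. CTPS2 was below the filter. In limma no de novo gene was called.

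Genes that act after the salvage kinases were mixed. Of 10 nucleotide kinase and deoxynucleotide genes, with medians of 0.03 and −0.24 with leflunomide and A771726, 1 was 2-fold lower with A771726, beside 18.7% of all genes. This was NME2, of the nucleoside diphosphate kinases (−1.61, and −1.09 relative to the median gene), while NME4 was at 0.30 and NME1 at −0.25. NME1 and NME2 are neighbouring genes of closely similar sequence, so their values are uncertain. Between the compounds NME2 and TYMS (thymidylate synthase) were 2-fold lower, at −1.11 and −1.01, beside 12.6% of all genes. With the median gene subtracted they were at −0.64 and −0.53. Of 4 purine salvage genes none differed from DMSO by 2-fold: APRT was at 0.40 and −0.71 with leflunomide and A771726, HPRT1 at 0.55 and −0.34, DGUOK at 0.31 and −0.08 and ADA at −0.15 and −0.35. Between the compounds APRT was 2-fold lower (−1.12, and −0.64 relative to the median gene). Of 10 E2F and S phase genes, a class to which TK1 is also counted, 3 were 2-fold lower with A771726, MCM2 (−1.17), MCM3 (−1.24) and RFC4, beside 18.7% of all genes. With the median gene subtracted they were at −0.65, −0.72 and −1.06, so RFC4 alone of the 3 stayed past 2-fold. The medians of the 10 genes were −0.36 and −0.76, beside −0.06 and −0.52 for all genes. RFC4, a clamp loader subunit, was at −0.83 and −1.58, the helicase gene MCM5 at −0.92 and −0.78 and the cyclin gene CCNE1 at 0.47 and 0.06. No gene of these lists was called by limma.

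The genes whose gene body pattern over the 6 libraries was nearest to UCK1, by the root mean square difference of centred log2 density among 3772 genes, were CWF19L1 (0.141), RRP7B (0.141) and SCO1 (0.159). Nearest to TK1 were the ribosomal protein gene RPL38 (0.0652), the acylaminoacyl peptidase gene APEH (0.100) and BMP8B (0.121). Nearest to TK2 were GPR75-ASB3 (0.0762), C2orf68 (0.0765) and TEN1-CDK3 (0.0787). CWF19L1 was at 0.0269 and 0.0213 for DMSO, 0.0268 and 0.0219 for leflunomide and 0.0121 and 0.0059 for A771726. RPL38 stood at 0.221 and 0.189, 0.212 and 0.122, and 0.0922 and 0.0694, at a higher level than TK1. It was picked for its likeness to TK1 over these libraries, so their shared ordering is not a separate result. Genes of a library share its scaling, which these likenesses include.

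The cells' identity was checked with fixed marker lists. The neural crest and melanocyte regulator gene SOX10 had a DMSO gene body mean of 0.329, the 98.4th percentile, and PAX3 was at the 73.0th, whereas the pigment genes PMEL and MLANA were at the 31.9th and 42.1st and MITF at the 36.3rd. None of 4 leukocyte markers had a row, the 3 endothelial markers were below the filter, and of the epithelial markers CDH1 was at the 7.69th percentile and KRT14 at the 51.2nd. Among the markers of other cell types with a row, all but KRT14 were at low values. KRT14 had group means of 0.0204, 0.0101 and 0.00385 in DMSO, leflunomide and A771726, and in DMSO it stood above PMEL, MLANA and MITF. Of 10 melanocyte lineage markers 5 had a row, and of 5 epithelial markers 2 did. A marker without a row has no value here, so its absence does not show a low level.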

How the data were processed

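GRO-seq reads were aligned with Bowtie 0.12.9 to hg18 and handled with bedtools, per the submitters' processing notes. Window limits, scaling, use of strand and the annotation are not stated there. Per the file headers, the authors deposited mean promoter and gene body signal (read density) for each group, and a mean traveling ratio with its fold over DMSO. A header name, A771762, was read as A771726.

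Library values were solved from the means of a row, using that densities have 4 decimals per library. A solution was found for 97.6%, 98.0% and 97.3% of rows with a promoter mean above 0 (DMSO, leflunomide, A771726), and 79.0%, 76.5% and 78.6% of promoter values were whole multiples of 1 read within 0.0001, against 0.0527%, 0.401% and 0.126% after a shift. The SLC29A2 pair in DMSO was picked among several solutions as the one on whole reads. Promoter density was 0 in 42.0%, 34.1% and 38.7% of rows. No source used here gives read totals per library, so the precision follows from the spread between libraries. In limma that spread is estimated over all 3 groups together and draws on all genes fitted. No counting interval or floor is given.

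For each symbol the row with the highest mean gene body density was used (in the library fits, the highest one solved). Genes under the 30th percentile were left out, leaving 8706 for gene bodies, 8838 for promoters and 5173 for ratios. Changes are on the log2(density + pseudocount) scale, with 0.0021 for gene bodies and 0.01735 for promoters, which understates changes of low genes. The ratio had no pseudocount. The library values were fitted by limma 3.58.1 (options trend and robust, in R 4.3.3) with all 3 groups in the fit, over 3772 genes (1445 for ratios) and Benjamini-Hochberg adjustment. The scripts were tested on simulated data. Genes named beyond the salvage genes were every de novo gene and, in each other list, those with the highest and lowest change with each compound, plus the 3 nearest in pattern to UCK1, TK1 and TK2. TYMS, MCM2, MCM3 and the SLC28A genes were named after their values were seen. The salvage genes and all lists were chosen with earlier results of these data known. Alternatives were another pseudocount, no filter, centred libraries, limma without its options, and each library left out.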

Additional observations from a re-analysis of the deposited data

How the results depend on the processing

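No call was made for the salvage genes under any alternative tried, so what follows is on the size and sign of the estimates. Of the values over the set under alternatives, 116 moved by less than the spread between libraries and 10 by more. Many of the 116 could not move, so this count overstates stability. In the library fits, leaving out a library of the group not compared leaves the estimate as it was. The same holds for limma without its options, and dropping the filter did not change the fitted values of these genes. With one library left out at a time, the median log2 change of the 5 fitted genes ranged from −1.42 to −0.69 for gene bodies with A771726 against DMSO, from −1.18 to −0.49 against leflunomide, and from −0.33 to 0.13 with leflunomide against DMSO. The promoter median ranged from −0.91 to 0.25 with leflunomide and from −0.86 to −0.077 with A771726 against DMSO. The median ratio change of TK1 and UPP1 ranged from −0.77 to 0.81 with A771726 against DMSO and from −0.15 to 1.43 against leflunomide. Library 1 or 2 of A771726, or library 1 of leflunomide, gave the ends that lie beyond the spread. Centred libraries put the gene body median at −0.29 with A771726 (from −0.83), at −0.060 between the compounds (from −0.55) and at −0.20 with leflunomide (from −0.25), and the promoter median at −0.61 with leflunomide and at −0.090 between the compounds.

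For single genes the sign of 6 estimates turned. With one library left out, SLC29A2 ranged from −0.79 to 0.30 with leflunomide and from −1.18 to 0.12 between the compounds, TK1 from −0.62 to 0.062 with leflunomide and UCK1 from −0.048 to 0.36 with leflunomide. Centring turned TK2 between the compounds to 0.030 and UPP1 with A771726 to 0.14. The A771726 estimates against DMSO stayed below 0 in every setting for UCK1 (−1.93 to −0.72, adjusted p 0.0593 to 0.643), TK1 (−1.49 to −0.69, adjusted p 0.0838 to 0.617) and TK2 (−0.96 to −0.29, adjusted p 0.181 to 0.830). The SLC29A2 estimate against DMSO with A771726 also stayed below 0 (−1.42 to −0.13), though its libraries overlapped. With all libraries in the fit, the median of all genes was at −0.54 in that comparison. A fit that leaves out a library assumes that the lone one varies like the other groups. The cause of these shifts was not tested. No paired analysis was possible because the deposited columns carry no replicate letters. With 2 libraries a group and at most 8.22 promoter reads per library at these genes, a promoter estimate as far from 0 as that of UCK1 with A771726 (−1.87) had an interval that included 0.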
